A study of Mus musculus with 60 samples.

Results

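Trp53, the mouse gene of the tumour suppressor p53, and 9 of its target genes were followed in nascent RNA of mouse embryonic stem cells with and without knockdown of Esrrb. The 10 genes (Trp53, Mdm2, Cdkn1a, Ccng1, Plk2, Bbc3, Bax, Phlda3, Sesn2 and Zmat3) were taken by symbol from 24260 symbols, and each was represented by the RefSeq transcript with the highest RPKM (reads scaled to transcript length and library size) summed over the libraries. All 10 lay above the expression minimum (a mean of at least 0.5 RPKM), as did 9758 genes in all. The cells were of the E14 line, grown in serum and LIF on gelatin, and transfected with a control siRNA (siCtrl, 2 libraries) or an siRNA against Esrrb (siEsrrb, 2 libraries), with harvest 72 h later. Both groups thus share the line, the medium and the transfection. Chromatin-bound RNA was sequenced after removal of ribosomal RNA; it is enriched for transcripts in synthesis, and reads fall in introns as well as exons. The other 56 samples of the series were not analysed here. No label states separate cultures for the 2 libraries of a group, and nascent RNA is an exception in the series' account of biological replication; every p-value here therefore reflects only how these libraries vary, which may be technical.

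p53 is a transcription factor that binds DNA as a tetramer and is held at a low level by the ubiquitin ligase Mdm2, whose gene it activates in turn. After DNA damage and other stress the protein is stabilised, and it then activates genes that halt the cell cycle, start cell death or adjust repair and metabolism. In embryonic stem cells p53 is abundant, and its arrest response is known to be weaker than in differentiated cells. p53 is controlled largely at the level of its protein, which was not measured here.

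The promoters of the genes are shown first because the 10 genes were chosen as p53 and its targets, and 5 of them carry at least 1 half-site of p53 near a start. A p53 binding site consists of a pair of half-sites, each made of purines, a C, a pair of A or T, a G and pyrimidines. RefSeq promoter windows of the build GRCm38.p6 (300 bases, from 250 before to 50 after a start) were found for 9 of the 10 genes, 12 windows in all. At least one p53 half-site, searched on both strands, stood in 5 of the 12 windows, and in 8.36% of all 32851 windows. The sequences below give the 250 bases before the start, 5′ to 3′ in the direction of the gene, with half-sites in capitals. The files' own reads were placed on mm9, and these coordinates are of GRCm38.p6 only.
Cdkn1a, upstream start, chr17:29090729-29090978, plus strand: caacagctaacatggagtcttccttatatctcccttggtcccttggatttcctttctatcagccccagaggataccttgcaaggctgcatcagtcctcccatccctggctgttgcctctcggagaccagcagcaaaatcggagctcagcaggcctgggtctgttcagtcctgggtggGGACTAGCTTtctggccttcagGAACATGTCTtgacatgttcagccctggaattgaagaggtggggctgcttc
Ccng1, chr11:40755287-40755536, minus strand: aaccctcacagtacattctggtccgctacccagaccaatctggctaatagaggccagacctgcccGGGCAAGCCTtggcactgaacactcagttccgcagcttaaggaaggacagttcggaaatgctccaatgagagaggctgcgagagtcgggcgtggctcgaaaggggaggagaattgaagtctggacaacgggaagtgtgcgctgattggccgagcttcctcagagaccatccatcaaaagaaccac
Trp53, chr11:69580109-69580358, plus strand: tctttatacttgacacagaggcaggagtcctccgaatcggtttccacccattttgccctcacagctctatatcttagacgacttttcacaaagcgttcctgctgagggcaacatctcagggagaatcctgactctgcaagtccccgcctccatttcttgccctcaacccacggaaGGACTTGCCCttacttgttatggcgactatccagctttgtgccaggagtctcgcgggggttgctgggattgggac
Mdm2, chr10:117710759-117711008, minus strand: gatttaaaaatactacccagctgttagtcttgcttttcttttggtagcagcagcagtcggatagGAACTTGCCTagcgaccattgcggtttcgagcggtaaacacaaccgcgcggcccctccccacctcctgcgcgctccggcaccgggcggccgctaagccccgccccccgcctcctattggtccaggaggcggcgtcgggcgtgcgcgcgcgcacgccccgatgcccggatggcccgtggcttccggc
Bax, chr7:45466899-45467148, minus strand: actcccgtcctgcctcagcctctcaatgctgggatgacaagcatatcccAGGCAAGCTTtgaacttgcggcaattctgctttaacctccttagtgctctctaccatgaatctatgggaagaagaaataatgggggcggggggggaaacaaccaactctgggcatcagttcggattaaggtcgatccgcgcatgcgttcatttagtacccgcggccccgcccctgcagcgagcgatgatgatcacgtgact

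The Cdkn1a window has the half-sites GGACTAGCTT and GAACATGTCT, which begin 73 and 51 bases before the upstream start and are not adjacent. Directly after GAACATGTCT stands tgacatgttc, which misses the pattern in its first base and so is not marked. The other 4 genes have a single half-site each. Ccng1 has GGGCAAGCCT 185 bases before its start, Trp53 has GGACTTGCCC at 75 bases, Mdm2 has GAACTTGCCT at 186 bases and Bax has AGGCAAGCTT at 201 bases. The windows of Bbc3, Plk2, Phlda3 and Sesn2 and the downstream start of Cdkn1a hold no half-site by this pattern, which says only that these letters are not in these windows. The element bound by Esrrb and its relatives, TCAAGGTCA, was searched in the same way on both strands. It stood in 0 of the 12 windows, against 0.423% of all windows. An element this rare would be missing from most sets of 12 windows, so nothing follows from its absence.

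Values below are scaled RPKM, that is, RPKM multiplied by 1 factor per library so that the median gene is level across libraries. Fold changes are of log2(scaled RPKM + 0.5), fitted with limma over all tested genes and called at an adjusted p under 0.05. Library totals, inferred from the RPKM, were 24764879 and 68002338 reads (siCtrl replicates 1 and 2) and 22363943 and 61857158 reads (siEsrrb replicates 1 and 2). Both replicate 2 libraries were thus deeper than both replicate 1 libraries, and the processing notes name more tools for replicate 1. The 10 genes had from 99 reads (Phlda3, siCtrl replicate 1) to 8728 reads (Mdm2, siCtrl replicate 2). Esrrb, the targeted gene, stood at 44.2% of control in replicate 1 and 67.0% in replicate 2 (3.39 and 3.10 scaled RPKM in siCtrl, 1.50 and 2.08 in siEsrrb). Its fitted log2 fold change was -0.72 (SE 0.15, limma adjusted p = 0.281), and a lncRNA overlaps its span. The 8 stem cell markers listed were all above the minimum, with a summed level of 95.5 to 102 scaled RPKM in siCtrl and 84.1 to 98.6 in siEsrrb. That sum covers members on both sides: 3 of the 8 (37.5%) were lower and 1 (12.5%) was higher in both siEsrrb libraries. Over all tested genes these shares were 22% and 21.8%, and the median log2 fold change of the 8 was 0.02. Zfp42 had 18.8 and 16.3 scaled RPKM in siCtrl and 8.75 and 10.2 in siEsrrb (log2 fold change -0.85), Dppa5a 15.2 and 15.4 against 9.55 and 10.0 (-0.62), and Nanog 5.63 and 6.57 against 3.76 and 4.80 (-0.47). Pou5f1, the gene of Oct4, had 12.1 and 14.7 in siCtrl and 20.4 and 15.9 in siEsrrb (0.42), and Sox2, the most abundant of the 8, had 24.4 and 21.1 against 22.6 and 20.4 (-0.08). Lin28a (0.47), Sall4 (0.23) and Utf1 (0.13) had positive log2 fold changes, with overlap between groups. None of the 20 listed markers of fibroblasts, mesendoderm, endoderm or trophectoderm reached the minimum. Of 4 neuroectoderm markers 3 did, and their summed level was 4.29 to 4.90 in siCtrl and 7.42 to 7.73 in siEsrrb. Nes made up most of it, with 3.02 and 2.66 in siCtrl and 5.92 and 5.31 in siEsrrb (0.87), and Sox1 had 0.598 and 0.472 against 0.771 and 0.915 (0.38). Pax6, also above the minimum, went the other way and overlapped between groups, with 1.28 and 1.15 against 1.04 and 1.20 (-0.09). No marker passed limma over all genes, and lncRNA genes overlap the spans of Sox1 and Sox2. The fibroblast marker Lum and the neuroectoderm marker Neurog2 had 0 reads in all 4 libraries. The part of these differences in the results below was not tested.

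Among the p53 genes, 4 had both siEsrrb values above both control values: Bbc3, Ccng1, Phlda3 and Plk2. Trp53 itself, its inhibitor Mdm2 and the targets Cdkn1a, Bax, Sesn2 and Zmat3 had fitted differences of at most 0.07 on the log2 scale in either direction. No gene of the 10 passed limma over all genes (adjusted p 0.412 to 0.981), nor did any of the 9758 genes tested (0%). An unadjusted p under 0.05 was reached by 1 of the 10 (Bbc3, higher), against 11.3% of all genes (5.92% higher and 5.33% lower). The 4 higher genes of 10 compare with 21.8% of all tested genes that were higher in both siEsrrb libraries, and 1 gene of 10 (Trp53) was lower in both, against 22% of all. The median log2 fold change of the 10 was 0.04 (0.11 in replicate 1 and 0.05 in replicate 2), and that of all tested genes was -0.0010. Without scaling between libraries only Bbc3 and Ccng1 remained higher in both siEsrrb libraries (2 of 10, against 16.6% of all genes), and Trp53 was no longer lower in both (0 of 10, against 18.7%). With scaling by the 75th percentile the same 4 were higher (20% of all genes) and 0 were lower (23.4% of all). The replicate number as a block in a model of the recovered reads (voom) passed 3 of the 10, Ccng1, Bbc3 and Phlda3, with 28% of all genes. With 2 libraries per group an exact permutation test cannot reach the threshold of 0.05, so none was run. In RNA from a whole culture, fewer cells with a transcript and less transcript per cell cannot be told apart.

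**Figure D1:**
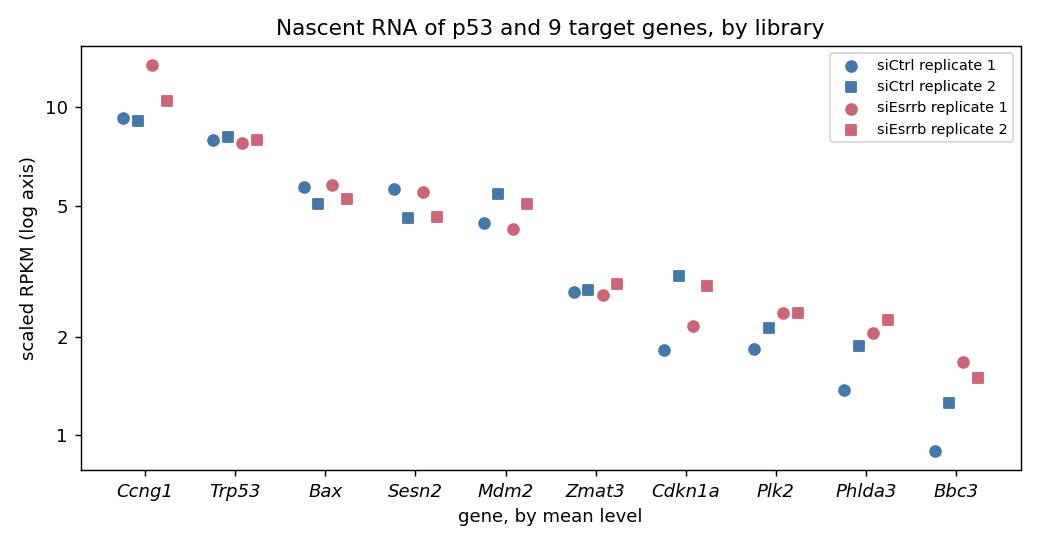
Scaled RPKM (log axis) of the 10 genes in each of the 4 libraries, ordered by mean level; blue marks siCtrl, red marks siEsrrb, circles replicate 1 and squares replicate 2. For Bbc3, Phlda3, Plk2 and Ccng1 both red points lie above both blue ones, while for Mdm2, Sesn2 and Cdkn1a the squares and circles lie further apart than the colours.

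Levels, as scaled RPKM over the span of each gene, ran from 10.6 for Ccng1 to 1.33 for Bbc3 (means of the 4 libraries). Ccng1 was followed by Trp53 (7.96), Bax (5.46), Sesn2 (5.10), Mdm2 (4.80), Zmat3 (2.77), Cdkn1a (2.47), Plk2 (2.17) and Phlda3 (1.89). The steps from Ccng1 to Trp53, from Trp53 to Bax and from Mdm2 to Zmat3 exceeded the spread, since the libraries' ranges did not overlap. All other neighbours overlapped in range. Of these, Bax over Sesn2, Plk2 over Phlda3 and Phlda3 over Bbc3 kept their order in each of the 4 libraries, while Sesn2 and Mdm2, Zmat3 and Cdkn1a, and Cdkn1a and Plk2 changed places in at least 1 library. Cep295, Sf3b3 and Srsf11 had the profiles nearest to that of Trp53, with distances of 0.0536, 0.0553 and 0.0697 in log2(scaled RPKM + 0.5) over the 4 libraries; this describes level and library pattern together.

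Trp53 differed little between libraries. Its nascent RNA had 7.96 and 8.14 scaled RPKM in siCtrl replicates 1 and 2 and 7.79 and 7.93 in siEsrrb replicates 1 and 2, from 2164, 6895, 1845 and 5962 reads. All 4 values lie within a narrow band, with both siEsrrb values just under both controls. These are 97.8% of control in replicate 1 (95% counting interval 91.9 to 104) and 97.4% in replicate 2 (94.1 to 101), so both intervals include 100%. The fitted log2 fold change was -0.03 (SE 0.10, 95% interval -0.29 to 0.23, limma adjusted p = 0.926). Its 2 RefSeq transcripts have the same values in every library. Trp63 and Trp73, the genes of the p53 relatives p63 and p73, were under the minimum. Trp63 had at most 0.0026 scaled RPKM. Trp73 had 0.197 and 0.343 in siCtrl and 0.391 and 0.512 in siEsrrb.

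Mdm2, the ubiquitin ligase and feedback inhibitor, had 4.44 and 5.42 scaled RPKM in siCtrl replicates 1 and 2 and 4.27 and 5.08 in siEsrrb. Replicate 2 was the higher of each group, at 122% of replicate 1 in siCtrl and 119% in siEsrrb, and the groups overlap. Against control Mdm2 stood at 96.1% in replicate 1 (counting interval 90.4 to 102) and 93.7% in replicate 2 (90.8 to 96.7). The log2 fold change was -0.07 (SE 0.15, 95% interval -0.47 to 0.33, limma adjusted p = 0.894), less than the spread between replicates. Leaving out siCtrl replicate 2 gave 0.06, and leaving out siEsrrb replicate 1 gave 0.05.

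Cdkn1a encodes p21, the inhibitor of cyclin-dependent kinases that carries much of the p53 arrest response. Its values were 1.82 and 3.06 scaled RPKM in siCtrl replicates 1 and 2 and 2.15 and 2.85 in siEsrrb. The 2 control libraries lie on either side of both siEsrrb libraries, and replicate 2 was at 169% of replicate 1 in siCtrl and at 132% in siEsrrb. Against control it stood at 119% in replicate 1 (counting interval 101 to 139.6) and 93.0% in replicate 2 (86.4 to 100.2), so that the 2 replicates pointed in opposite directions. The fitted log2 fold change of 0.05 had the widest 95% interval of the 10 genes (-0.64 to 0.75, SE 0.25, limma adjusted p = 0.956). Leaving out siCtrl replicate 1 gave -0.26, siCtrl replicate 2 0.36, siEsrrb replicate 1 0.22 and siEsrrb replicate 2 -0.11.

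**Figure D2:**
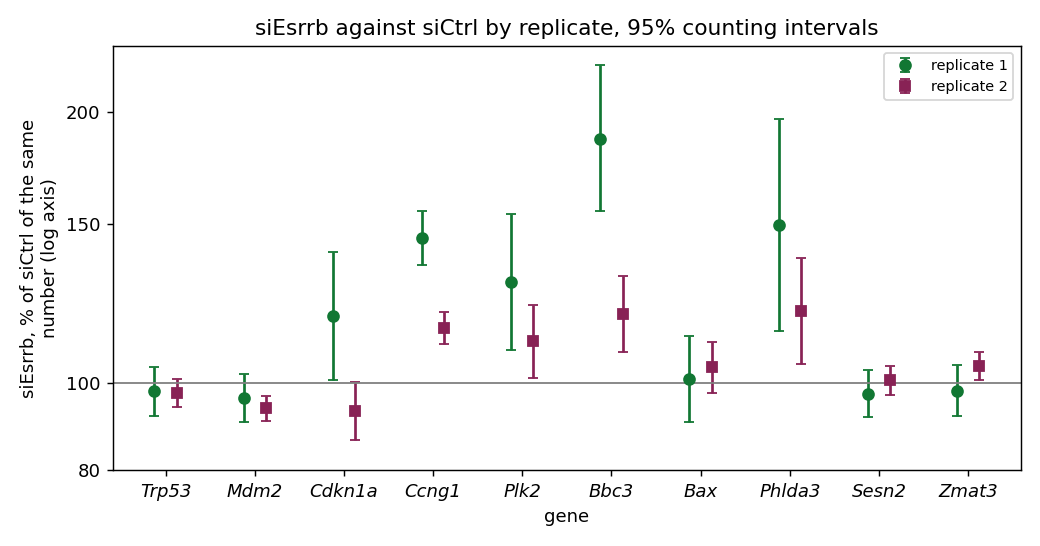
Scaled RPKM in siEsrrb as a percentage of siCtrl of the same replicate number (log axis), with exact 95% intervals that cover counting error only; circles are replicate 1 and squares replicate 2. Ccng1, Plk2, Bbc3 and Phlda3 lie above 100% in both replicates with intervals that do not reach it, and each is higher in replicate 1 than in replicate 2. Their place above 100% follows from both siEsrrb values lying above both controls. The share of all genes with such intervals was not counted.

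Cdkn1a has a longer and a shorter transcript in the files, which differ in start. The longer (NM_001111099) covers 9744 bases and the shorter (NM_007669) 6954 bases, and the 2790 bases between their starts are covered by the longer alone. The start of the longer is the one whose promoter holds the half-sites GGACTAGCTT and GAACATGTCT printed above. The stretch held 12 and 43 reads in siCtrl replicates 1 and 2 and 22 and 54 in siEsrrb. That is 3.87% (exact Clopper-Pearson 95% interval 2.02 to 6.66) and 2.67% (1.94 to 3.58) of the reads of the longer transcript in siCtrl. In siEsrrb it is 6.67% (4.22 to 9.92) and 4.01% (3.03 to 5.20). Both siEsrrb shares lie above both control shares, and within each replicate number the intervals overlap. Read density over the stretch was 0.182 and 0.210 scaled RPKM in siCtrl and 0.383 and 0.297 in siEsrrb. In each library it was thus far below the density over the shorter transcript (1.82 to 3.06). The stretch is 28.6% of the longer transcript's length, so most Cdkn1a reads came from beyond the downstream start in every library. The difference in shares was not tested, and reads of other RNA in the stretch cannot be told apart from the longer transcript.

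**Figure D3:**
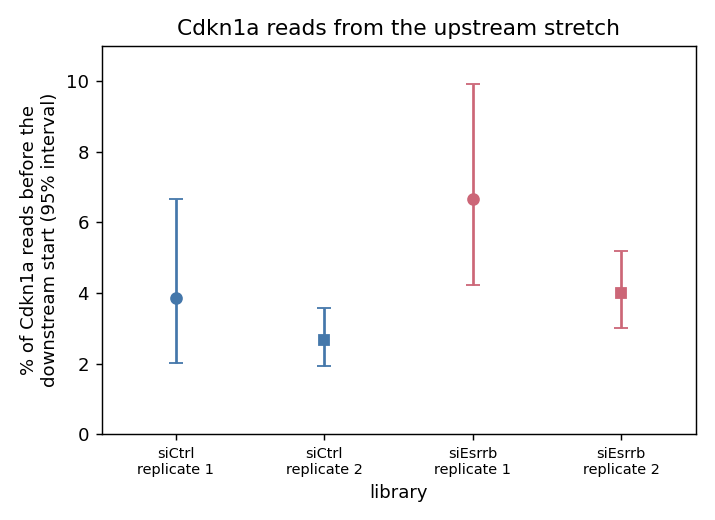
Share of the reads of the longer Cdkn1a transcript that fall in the 2790 bases before the downstream start, per library, with exact 95% binomial intervals; blue marks siCtrl and red siEsrrb. The shares are 3.87% and 2.67% in siCtrl and 6.67% and 4.01% in siEsrrb.

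Ccng1 encodes cyclin G1, a cyclin that works with protein phosphatase 2A on Mdm2 rather than driving the cell cycle. It was the most abundant member, with 9.27 and 9.07 scaled RPKM in siCtrl replicates 1 and 2 and 13.4 and 10.4 in siEsrrb. Both siEsrrb libraries lie above both controls, and siEsrrb replicate 1 stands well above the other 3. Against control it was at 145% in replicate 1 (counting interval 135 to 155) and 115% in replicate 2 (110.5 to 119.98), and these intervals do not overlap. Its mean ± SD over 2 libraries was 9.17 ± 0.140 for siCtrl and 11.9 ± 2.12 for siEsrrb. Its log2 fold change was 0.35 (SE 0.16, 95% interval -0.08 to 0.78, limma adjusted p = 0.507). Leaving out siEsrrb replicate 1 gave 0.18, and leaving out siEsrrb replicate 2 gave 0.53.

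Plk2 encodes a polo-like kinase that acts in centriole duplication and in the response to stress. Scaled RPKM of Plk2 were 1.83 and 2.12 in siCtrl and 2.36 and 2.36 in siEsrrb. The siEsrrb libraries are alike and both above the controls. In replicate 1 this was 129% of control (counting interval 109 to 154) and in replicate 2 it was 111% (101 to 122). The fit gave a log2 fold change of 0.21 (SE 0.09, 95% interval -0.03 to 0.45, limma adjusted p = 0.486). Leaving out siCtrl replicate 1 gave 0.13.

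Bbc3 encodes PUMA, a BH3-only protein that promotes cell death at mitochondria and is among the main p53 targets in apoptosis. It had the lowest level of the 10, with 0.896 and 1.26 scaled RPKM in siCtrl replicates 1 and 2 and 1.67 and 1.50 in siEsrrb, from 185, 808, 301 and 855 reads. Both siEsrrb values lie above both controls, and siCtrl replicate 1 is the lowest. Bbc3 stood at 187% of control in replicate 1 (counting interval 155 to 225) and 119% in replicate 2 (108 to 131), and these intervals do not overlap. The 2 siCtrl libraries had a mean ± SD of 1.08 ± 0.254 and the 2 siEsrrb libraries one of 1.58 ± 0.124. The log2 fold change of 0.41 was the highest of the 10 (SE 0.14, 95% interval 0.04 to 0.78, limma adjusted p = 0.412). Leaving out siCtrl replicate 1 brought it to 0.25.

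Bax encodes the effector that opens the outer mitochondrial membrane once proteins such as PUMA release it. Unlike Bbc3 it showed no separation, with 5.72 and 5.06 scaled RPKM in siCtrl replicates 1 and 2 and 5.78 and 5.26 in siEsrrb. Replicate 1 was the higher library of each group. Relative to control Bax stood at 101% in replicate 1 (counting interval 90.5 to 113) and 104% in replicate 2 (97.5 to 111), and both intervals include 100%. A log2 fold change of 0.03 was fitted (SE 0.11, 95% interval -0.27 to 0.34, limma adjusted p = 0.936), and it turned to -0.05 when siCtrl replicate 2 was left out and to -0.03 when siEsrrb replicate 1 was. The difference between the fold changes of Bbc3 and Bax was not tested.

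Phlda3 encodes a small pleckstrin-homology protein that restrains the kinase Akt. In siCtrl it had 1.38 and 1.87 scaled RPKM, and in siEsrrb 2.06 and 2.25, with the siEsrrb libraries above both controls. That is 149.5% of control in replicate 1 (counting interval 114 to 196) and 120.2% in replicate 2 (105 to 138). Read numbers were the smallest of the 10 genes, 99, 419, 129 and 447, and the counting intervals are wide for that reason. The fitted log2 fold change was 0.33 (SE 0.14, 95% interval -0.04 to 0.70, limma adjusted p = 0.486). Its value was 0.16 with siCtrl replicate 1 left out and 0.50 with siCtrl replicate 2 left out.

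Sesn2 encodes a sestrin, a leucine sensor that restrains mTORC1, and is also a target of the integrated stress response. Scaled RPKM of Sesn2 were 5.66 and 4.61 in siCtrl replicates 1 and 2 and 5.50 and 4.64 in siEsrrb. Here replicate 1 was higher in both groups, and the pairs of the same number nearly coincide (97.3% and 101% of control). The log2 fold change was -0.01 (SE 0.15, 95% interval -0.42 to 0.39, limma adjusted p = 0.981). It was 0.12 with siCtrl replicate 1 left out and -0.15 with siCtrl replicate 2 left out.

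Zmat3 encodes a zinc-finger protein that binds RNA and takes part in the tumour suppression by p53. It had 2.73 and 2.78 scaled RPKM in siCtrl and 2.68 and 2.90 in siEsrrb, and the groups overlap. Its log2 fold change of 0.01 had the narrowest 95% interval of the 10 (-0.20 to 0.23, SE 0.08, limma adjusted p = 0.964). A lncRNA gene, 4930429B21Rik, overlaps Zmat3 in the annotation, and since use of strand is not given in the sources used here their reads cannot be told apart. No annotated gene overlaps any of the other 9.

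In each of the 4 higher genes the excess over control was larger in replicate 1 than in replicate 2. This was not particular to them, since Esrrb and genes outside the 10 showed it in either direction. Log2 fold changes in replicates 1 and 2 were -0.75 and -0.45 for Ulk1 and 0.65 and 0.31 for Bcl2. Hexim1 went the other way (0.29 and 0.38), and the share over all genes was not counted. Of the other 6 genes none had counting intervals above 100% in both replicates. The 4 were named for siEsrrb values above both controls, so their place above 100% in both replicates follows from that choice. The contrast with the other 6 is therefore no separate result. Depth and the tools named by the submitters move with the replicate number, and their part in this was not tested.

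**Figure D4:**
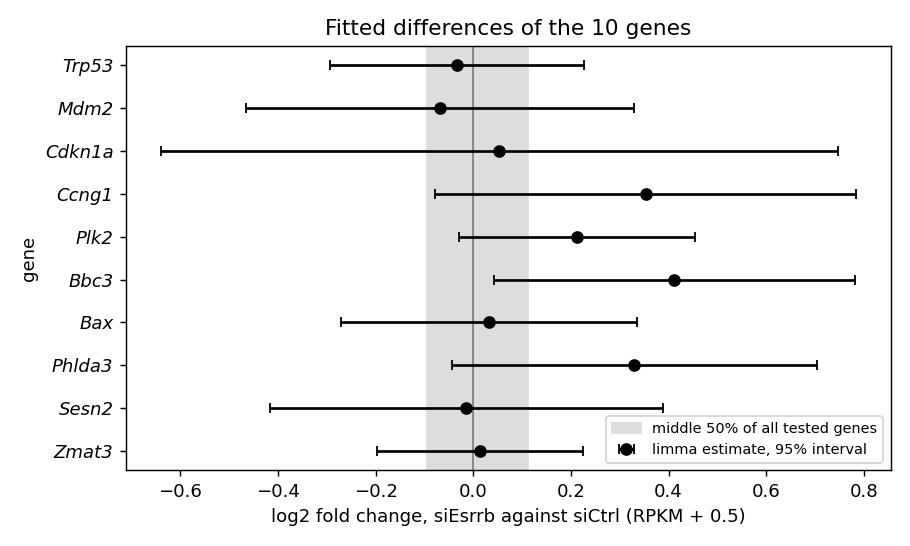
Fitted log2 fold change of each gene (points) with its 95% limma interval (bars); the grey band spans the middle 50% of all 9758 tested genes, from -0.09 to 0.11. The interval of Bbc3 alone excludes 0, before any adjustment for the number of genes tested.

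The wider p53 pathway was described with 111 further genes in lists of regulators, targets by function and relatives, of which 89 were tested. None passed limma over all genes (smallest adjusted p 0.281). Both siEsrrb libraries were higher for 19 of the 89 (21.3%) and lower for 16 (18.0%), against 21.8% and 22% of all tested genes. Unadjusted p was under 0.05 for 6 higher and 5 lower genes, and the median log2 fold change was -0.03. The shares of the wider pathway were close to those of all genes. Without scaling 12 of the 89 were higher and 15 lower in both. Lower genes then outnumbered higher ones, as they did over all genes (16.6% higher and 18.7% lower).

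Regulators of p53 lay on both sides of 0. Of 29 tested, 8 were higher (27.6%) and 6 lower (20.7%) in both siEsrrb libraries, against 21.8% and 22% of all genes (median -0.03). Trp53bp1, whose product 53BP1 acts at DNA breaks, had 1.89 and 1.83 scaled RPKM in siCtrl and 2.60 and 2.42 in siEsrrb (log2 fold change 0.35, SE 0.07, limma adjusted p = 0.281). Its annotated span overlaps Tubgcp4 and Map1a, whose reads cannot be told apart from its own. Mif, a cytokine known to restrain p53, was the most abundant regulator at 21.4 and 23.8 in siCtrl and 28.7 and 25.0 in siEsrrb (0.25, SE 0.15). Mdm4, the Mdm2 relative that blocks p53 activity, had 10.0 and 12.4 in siCtrl and 7.42 and 10.5 in siEsrrb, an overlap (-0.32, SE 0.22, limma adjusted p = 0.635); a pseudogene and a lncRNA overlap its span.

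Targets in the cell cycle and growth list mostly overlapped between groups. Of 14 tested, 1 was higher (7.14%) and 1 lower (7.14%) in both siEsrrb libraries, against 21.8% and 22% of all genes (median -0.03). Gdf15, a secreted stress cytokine, had 0.888 and 0.716 scaled RPKM in siCtrl and 0.260 and 0.513 in siEsrrb (log2 fold change -0.57, SE 0.17). Ier5, an immediate-early gene, had 0.428 and 0.532 in siCtrl and 1.13 and 0.693 in siEsrrb (0.51, SE 0.18). Psrc1, a spindle protein gene and the most abundant of the list, had 11.8 and 13.0 in siCtrl and 12.9 and 14.8 in siEsrrb (0.15, SE 0.13).

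Cell death targets had 15 tested genes, 5 higher (33.3%) and 3 lower (20%) in both siEsrrb libraries (median 0.05). Over all tested genes the shares were 21.8% and 22%. Bcl2l11, which encodes the BH3-only protein BIM, had 3.87 and 3.50 scaled RPKM in siCtrl and 5.79 and 4.57 in siEsrrb (log2 fold change 0.43, SE 0.14, limma adjusted p = 0.412), and its span overlaps Acoxl. Pidd1, the most abundant of the list, had 5.99 and 6.02 in siCtrl and 6.45 and 6.01 in siEsrrb (0.05, SE 0.09). Among 10 tested BCL2 family genes, some of which are also in the cell death list, 3 were higher (30%) and 2 lower (20%). Bcl2, the anti-apoptotic founder of the family, had 0.299 and 0.390 in siCtrl and 0.755 and 0.605 in siEsrrb (0.48, SE 0.12, limma adjusted p = 0.321), and a miRNA gene and a lncRNA overlap its span. Mcl1, the most abundant anti-apoptotic member, had 20.1 and 20.3 in siCtrl and 21.9 and 19.7 in siEsrrb (0.04, SE 0.13).

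Repair and nucleotide targets had 1 gene higher (7.69%) and 3 lower (23.1%) of 13, against 21.8% and 22% of all genes (median -0.05). Rev3l, the catalytic subunit of a translesion polymerase, had 1.78 and 1.79 scaled RPKM in siCtrl and 1.42 and 1.57 in siEsrrb (log2 fold change -0.20, SE 0.07), and a lncRNA and 2 pseudogenes overlap its span. Pcna, the sliding clamp and the most abundant of the list, had 7.73 and 6.89 in siCtrl and 8.38 and 7.62 in siEsrrb (0.12, SE 0.12).

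Metabolic and redox targets held the most single genes with an unadjusted p under 0.05, 3 higher and 3 lower of 19 tested (median -0.02), against 5.92% and 5.33% of all genes. Values did not overlap between groups for 4 higher and 3 lower genes of the 19, against 21.8% and 22% of all genes. Ulk1, the kinase that starts autophagy, had 8.68 and 9.12 scaled RPKM in siCtrl and 4.96 and 6.53 in siEsrrb (log2 fold change -0.60, SE 0.16, limma adjusted p = 0.349). Nupr1, a stress-induced nuclear protein gene, was at 1.50 and 1.44 against 1.01 and 1.14 (-0.32, SE 0.08), with a lncRNA over its span, and Tigar, a regulator of glycolysis, at 1.1 and 1.00 against 0.875 and 0.816 (-0.20, SE 0.07). Hexim1, an inhibitor of the elongation factor P-TEFb, had 2.14 and 1.88 in siCtrl and 2.73 and 2.60 in siEsrrb (0.34, SE 0.09). The lipid transfer protein gene Pltp (0.33, SE 0.10) and the copper chaperone gene Sco2 (0.35, SE 0.09) were also higher in both, and each overlaps a neighbouring protein-coding gene. Gpx1, a glutathione peroxidase and the most abundant of the list, had 10.9 and 8.83 against 12.7 and 8.87 (0.11, SE 0.22).

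**Figure D5:**
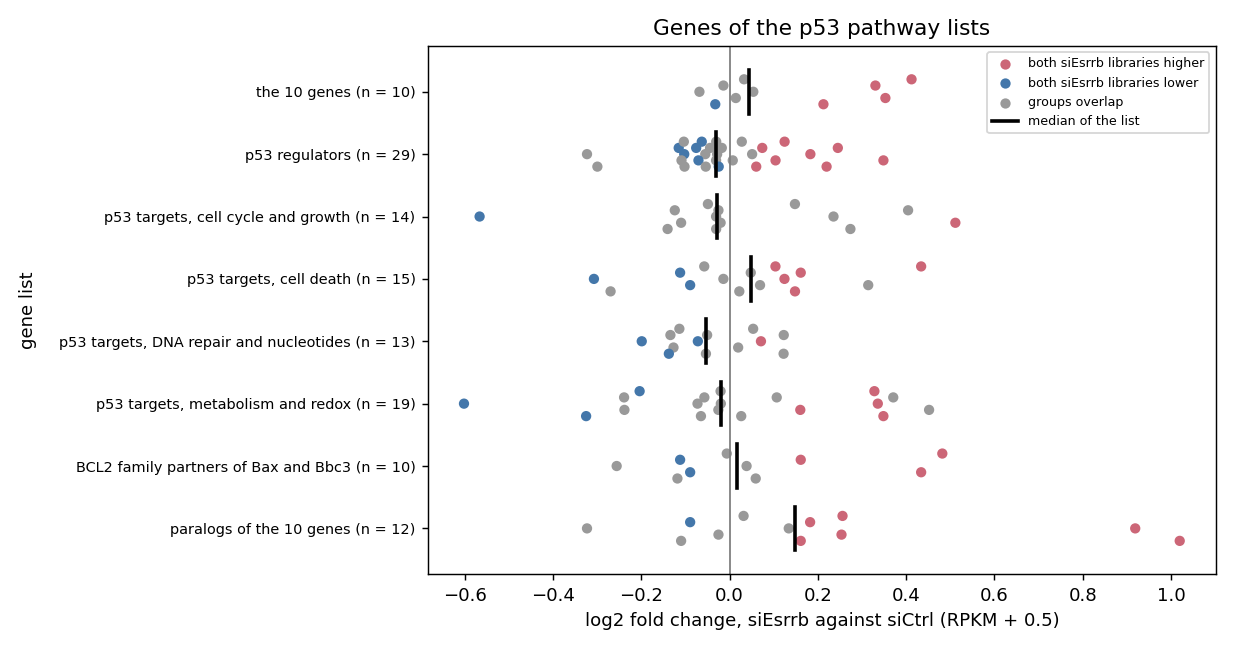
Log2 fold change of each tested gene (points) in the 10 p53 genes, the 5 p53 pathway lists, the BCL2 family list and the paralogs of the 10 genes, with the median of each list (black bars); red points were higher and blue points lower in both siEsrrb libraries. Medians lie between -0.05 and 0.15, and the 2 points furthest right are Cdkn1c and Phlda2.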

How the data were processed

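Nascent RNA was measured in 4 libraries of E14 cells. Each file holds RPKM per RefSeq transcript, as deposited by the authors. Per the submitters' processing notes, CASAVA 1.4 and TopHat2 were used for all, Bowtie 1.1.1 and Bowtie2 besides for replicate 1, with build mm9; how reads were counted, and whether by strand, is not given in the sources used here. The first library of each group carries no number in its title and was called replicate 1.

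Symbols were found for 34631 of 34929 transcripts (RefSeq table of GRCm38.p6). RPKM were multiplied by a median-of-ratios factor per library (0.925 to 1.09), giving scaled RPKM. Log2(scaled RPKM + 0.5) was fitted with limma 3.58.1 in R 4.3.3 (eBayes with trend, no replicate block), two-sided, with Benjamini-Hochberg adjustment over 9758 genes (mean RPKM 0.5 or more). Fold changes are on this scale, which understates those of low genes; SE and 95% intervals come from the fit. Whole reads were recovered from the RPKM steps for 31770 of 31771 transcripts above 0, within 0.0002 of a read; a factor shared by the 4 read numbers was settled by the annotated span. These reads gave a voom alternative and exact (Clopper-Pearson) intervals, which cover counting error only and compare libraries, not conditions. Depths are the library totals that most often made read numbers whole at the annotated span. They were inferred before the reads and are not stated by the submitters in the sources used here. The fit was tested on simulated data.

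Genes named with values are the 10, Esrrb, and from each list the most abundant tested gene and those with no overlap between groups and an unadjusted p under 0.05; others (such as Pou5f1) were named after their values were seen. The genes and lists were chosen with earlier results of these data known. Nothing was adjusted over a list alone.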

Additional observations from a re-analysis of the deposited data

How the results depend on the processing

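The 4 higher genes had positive log2 fold changes in all 58 values under the 15 alternatives. In most alternatives that sign was fixed beforehand, since they reuse scaled values in which both siEsrrb libraries lie above both controls. Only a change of scaling, of transcript summary or to voom could have altered it. Of the 148 values of the 10 genes, 132 kept their sign and their side of the threshold. Without scaling, 2 genes were higher and 0 lower in both siEsrrb libraries, the median was 0.0047, and Bax (-0.0070), Zmat3 (-0.022) and Mcl1 (-0.0042) turned negative. With scaling by the 75th percentile 0 were lower and Zmat3 was at -0.0026. At a mean RPKM of at least 2, where Bbc3 and Phlda3 are left out, 2 of 8 were higher. The share over all genes at that minimum was not counted. Leaving out each library in turn, which sets 2 libraries against 1 and so separates groups more easily, gave 5 to 6 higher and 1 to 3 lower genes of the 10 (33.5% to 37.2% and 32.4% to 39.9% of all genes), a median of 0.10 to 0.18 and 0 to 12 genes past limma's adjusted test (2 without siCtrl replicate 1, 12 without siEsrrb replicate 2). Ranges over these fits that crossed 0 were -0.26 to 0.36 for Cdkn1a, -0.15 to 0.12 for Sesn2, -0.20 to 0.063 for Mdm2, -0.048 to 0.11 for Bax, -0.034 to 0.062 for Zmat3, -0.18 to 0.027 for Sox2, -0.14 to 0.35 for Gpx1 and -0.033 to 0.11 for Mcl1. The cause was not tested. Fits with the replicate number as a block treat same-numbered libraries as pairs. No label names a shared culture or day, while depth and the tools named by the submitters differ by number. Differences between replicates 1 and 2 in siCtrl and siEsrrb correlated over genes (r = 0.39, a description). The limma fit with a replicate block passed 0 genes and 0 of the 10 (2557 genes at an unadjusted p under 0.05). Voom with a replicate block passed 2736 genes (28% of those tested) and 3 of the 10: Ccng1 (adjusted p = 1.32e-05), Bbc3 (0.000878) and Phlda3 (0.036); Cdkn1a was at -0.021 there. Without the block voom passed 0 genes, 1195 having an unadjusted p under 0.05, against 1098 in the limma fit. Depth limits Phlda3 most.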

Other observations

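Paralogs of the 10 genes included larger differences than the genes themselves. Of 12 tested, 6 were higher and 1 lower in both siEsrrb libraries (median log2 fold change 0.15), with 0 past limma over all genes. Over all tested genes these shares were 21.8% and 22%. Cdkn1c, the imprinted relative of Cdkn1a that encodes the cell cycle inhibitor p57, had 0.625 and 0.647 scaled RPKM in siCtrl and 2.33 and 1.37 in siEsrrb (1.02, SE 0.21, adjusted p = 0.283). Phlda2, the imprinted relative of Phlda3, had 3.04 and 3.17 in siCtrl and 8.61 and 4.59 in siEsrrb (0.92, SE 0.30, adjusted p = 0.412). It was 1.34 without siEsrrb replicate 2 and 0.50 without siEsrrb replicate 1. Plk1, the mitotic relative of Plk2, had 2.46 and 2.80 in siCtrl and 3.15 and 3.30 in siEsrrb (0.25, SE 0.09). Sesn3, under the minimum and chosen after its values were seen, had 0.362 and 0.379 in siCtrl and 0.552 and 0.596 in siEsrrb. Plk5, chosen likewise and also under the minimum, was lower in both siEsrrb libraries (0.361 and 0.434 against 0.113 and 0.297).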
